A study of Bos grunniens x Bos taurus and Bos grunniens with 6 samples.

Results

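The testis-specific serine kinases (TSSK), their substrate TSKS and a small group of related kinase genes were followed in testis RNA of yak and of sterile hybrid cattle-yak. The genes were taken by symbol, whatever the case of the letters: TSSK1B, TSSK2, TSSK3, TSSK4, TSSK6, TSKS, CAMK4, CSNK2A1, CSNK2A2 and CSNKA2IP. Of these 10 symbols 9 were found, each on 1 gene, among the 18918 genes of the table, and the symbol TSSK1B was absent. The gene with the symbol TSSK2 (ENSBGRG00000019032) carries a description that names TSSK1B, a paralog. Which of the pair it stands for is thus uncertain, and it is called TSSK2 here.

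The cattle-yak group held 3 animals (C1, C2 and C3), F1 males from a Jersey cattle sire and a Gannan yak dam. The yak group held 3 Gannan yak males (Y1, Y2 and Y3), and all animals were 4 years old and untreated. Each library was made from testis tissue of 1 animal. Cattle-yak testes came from castration and yak testes from euthanized animals of another county, so these conditions cannot be told apart from the groups.

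TSSK kinases belong to the calmodulin kinase group of serine/threonine kinases and are made in spermatids, the haploid cells that reshape into sperm after meiosis. TSKS binds TSSK1 and TSSK2 and sits in the structures derived from the chromatoid body of spermatids. CAMK4 is a calmodulin-dependent kinase found in T cells, brain and male germ cells. CSNK2A1 and CSNK2A2 encode the alternative catalytic subunits of the protein kinase CK2, which is present in all cells and pairs them with the regulatory subunit CSNK2B, while CSNKA2IP is named for its binding to the CSNK2A2 product.

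FPKM is the number of fragments per kilobase of gene model and scaled to the size of its library, so levels of different genes can be set side by side. The values rested on 11175100 to 11834987 fragments on genes in cattle-yak and 12991641 to 13136129 in yak. A single fragment on a gene of 1 kb stood for 0.0761 to 0.0895 FPKM. Genes were compared with limma on log2 (FPKM + 1) and called at an adjusted p under 0.05 with a log2 (foldchange) beyond 1 in size. The median log2 (foldchange) over the 15042 genes tested was 0.51. As a check of the tissue, all 9 Sertoli cell genes found of 10 listed were expressed and were called higher in cattle-yak, with summed levels of 2423 to 2590 FPKM against 483 to 544 in yak.

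All 9 genes of the set passed the minimum level for the test. Of these, 7 were called lower in cattle-yak, where 20.8% of all genes tested were called lower, and 0 were called higher, against 33.4% of all genes. The 7 were TSSK2, TSSK3, TSSK4, TSSK6, TSKS, CAMK4 and CSNKA2IP, and the other 2 were the catalytic CK2 subunits. The median log2 (foldchange) over the 9 genes was −5.72. The ranges of cattle-yak and yak stayed apart for each of the 9 genes, as they did for 84.1% of the genes tested.

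TSSK6 (ENSBGRG00000001976), a kinase linked to chromatin condensation in mouse spermatids, was the most abundant gene of the set in yak. It had 621, 594 and 708 FPKM in Y1, Y2 and Y3, against 4.73, 1.74 and 1.36 in C1, C2 and C3. The lowest yak animal thus lay far above the highest cattle-yak animal, C1. On limma's scale it fell with a log2 (foldchange) of −7.58 ± 0.30 (SE, adjusted p = 2.8e-07), rank 16 of all genes tested from the largest fall. The mean of yak lay at or above 99.4% of the tested genes and that of cattle-yak at or above 22.2%. The ratio of the group means was 245-fold, and 413-fold without C1.

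TSSK2, the next gene in abundance, had 349, 341 and 384 FPKM in Y1, Y2 and Y3, and 4.47, 2.41 and 0.56 in C1, C2 and C3. The yak animals stood close together, whereas C1 had the highest and C3 the lowest level among the cattle-yak. Limma put the log2 (foldchange) at −6.86 ± 0.39 (SE, adjusted p = 1.3e-06), rank 61. The ratio of the means was 144-fold, and 241-fold without C1.

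TSSK4 (ENSBGRG00000017845), which phosphorylates the outer dense fibre protein ODF2 of the sperm tail, had 231, 203 and 219 FPKM in Y1, Y2 and Y3. In C1, C2 and C3 it had 2.58, 0.91 and 0.44 FPKM. The order of the cattle-yak animals was again C1, C2, C3. Its log2 (foldchange) in limma was −6.67 ± 0.29 (SE, adjusted p = 4.3e-07), rank 81, and the ratio of the means was 166-fold, or 322-fold without C1.

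TSSK3 (ENSBGRG00000012978) kept more of its level than the other TSSK genes. It had 120, 134 and 149 FPKM in Y1, Y2 and Y3, against 8.27, 7.10 and 6.41 in C1, C2 and C3. All yak animals lay above all cattle-yak animals, and limma put the log2 (foldchange) at −4.04 ± 0.13 (SE, adjusted p = 1.2e-07), rank 570. In yak TSSK3 was the least abundant of the 4 TSSK genes, and in cattle-yak it was the most abundant, with no overlap with any of the others in either group.

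Summed over these 4 genes, the TSSK level was 1321, 1272 and 1459 FPKM in Y1, Y2 and Y3, and 20.1, 12.2 and 8.77 in C1, C2 and C3. Their share of the FPKM of a library was 0.213% to 0.239% in yak. In bulk tissue, fewer cells of a type and less RNA per cell cannot be told apart.

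**Figure D1:**
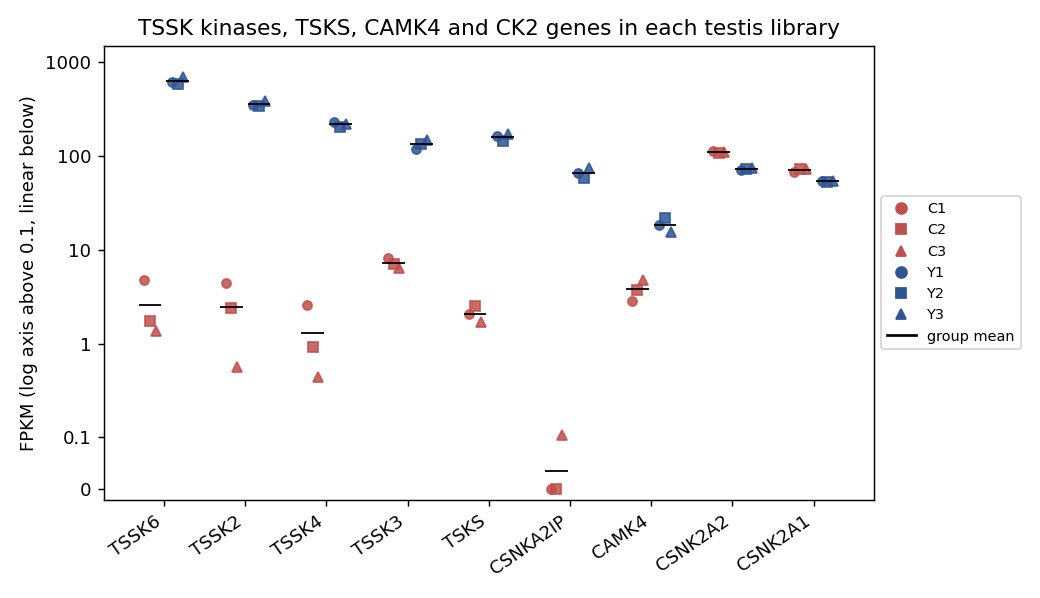
FPKM of the 9 genes in each library (log axis above 0.1, linear below), with red for cattle-yak, blue for yak, a marker shape for each animal and a black line for the group mean of 3 animals. The TSSK genes, TSKS, CSNKA2IP and CAMK4 sit lower in cattle-yak without overlap, and CSNK2A1 and CSNK2A2 sit between 53.3 and 112.9 FPKM in both groups.

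TSKS (ENSBGRG00000023079), the substrate, had 164, 147 and 171 FPKM in Y1, Y2 and Y3, against 2.07, 2.49 and 1.70 in C1, C2 and C3. Here C2 was highest among the cattle-yak. The groups stood apart, with a log2 (foldchange) of −5.72 ± 0.13 in limma (SE, adjusted p = 5.7e-08), rank 204. The level of TSKS relative to TSSK2 within a library was 0.431 to 0.471 in yak. In C1, C2 and C3 it was 0.463, 1.03 and 3.04, so C1 lay within the yak range. On the scale of log2 (FPKM + 1) the groups differed in this ratio by 1.15 (exact permutation test, two-sided, p = 0.1, the smallest that 3 against 3 animals can give), or by 0.75 without C3. With a pseudocount of 0.01 in place of 1, or without any 1 yak animal, the exact permutation p was 0.2, so this difference was not resolved.

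CSNKA2IP (ENSBGRG00000000182) came closest to absence. It was represented by 714, 623 and 790 fragments in Y1, Y2 and Y3, that is 66.4, 58.0 and 74.2 FPKM. In cattle-yak 1 fragment was found in C3 and 0 in C1 and C2. Pooled over the animals and corrected for depth, the ratio of yak to cattle-yak was 1876, with an exact 95% counting interval of 336 to 74148. The fitted value, −6.02 in limma with an adjusted p = 5.7e-08, depends on the pseudocount for such a gene.

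CAMK4 (ENSBGRG00000011434) fell least among the genes called lower. It had 18.3, 21.9 and 15.7 FPKM in Y1, Y2 and Y3, and 2.88, 3.71 and 4.75 in C1, C2 and C3. Among the cattle-yak C3 was highest, unlike for the TSSK genes. Limma put the log2 (foldchange) at −2.05 ± 0.19 (SE, adjusted p = 1.7e-05), rank 1704, and the ratio of the means was 4.94-fold. In yak CAMK4 stood at 0.0222 to 0.0369 of the TSSK6 level, and in cattle-yak at 0.609, 2.13 and 3.48 in C1, C2 and C3. The log2 ratio of CAMK4 to TSSK6 differed by 5.54 between the groups (exact permutation test, two-sided, p = 0.1).

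The catalytic CK2 subunits were called in neither direction, except with scaling on the Sertoli genes, where both were called lower. With that scaling 9945 of the 15042 genes tested were called lower, the background for each count given with it. CSNK2A1 (ENSBGRG00000013780) had 67.7, 72.6 and 72.8 FPKM in C1, C2 and C3 and 54.6, 53.3 and 54.2 in Y1, Y2 and Y3. CSNK2A2 (ENSBGRG00000014395), whose loss in mice gives round-headed sperm, had 112.9, 108.1 and 109.5 FPKM in C1, C2 and C3, and 70.9, 72.4 and 74.7 in Y1, Y2 and Y3. All cattle-yak animals were above all yak animals for both genes, though by less than the threshold of 1.

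In limma CSNK2A1 stood at a log2 (foldchange) of 0.39 ± 0.09 (SE, adjusted p = 2.9e-03) and CSNK2A2 at 0.59 ± 0.08 (SE, adjusted p = 1.9e-04). An adjusted p under 0.05 with a higher level in cattle-yak was reached by 52.6% of all genes tested. Relative to the median of all genes, CSNK2A1 stood at −0.12 and CSNK2A2 at 0.08. With median-of-ratios scaling the values turned to −0.22 and −0.018, and with scaling on the Sertoli genes to −2.09 and −1.90, so the direction of neither gene held across scalings. The ratio of CSNK2A2 to CSNK2A1 within a library is free of this choice. It lay between 1.49 and 1.67 in cattle-yak against 1.30 to 1.38 in yak, a log2 difference of 0.21 (exact permutation test, two-sided, p = 0.1).

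CSNK2B (ENSBGRG00000014465), the regulatory subunit that joins the catalytic ones in the CK2 complex, was called lower in cattle-yak, also with median-of-ratios (−2.06) and Sertoli scaling (−3.95). It had 351, 380 and 326 FPKM in Y1, Y2 and Y3, against 154.8, 119.2 and 115.3 in C1, C2 and C3. Every yak animal exceeded every cattle-yak animal, with −1.44 ± 0.13 for the log2 (foldchange) in limma (SE, adjusted p = 1.6e-05). The log2 ratio of CSNK2B to CSNK2A1 differed by −1.83, cattle-yak minus yak (exact permutation test, two-sided, p = 0.1). Set against the sum of both catalytic subunits, the CSNK2B level was 2.53 to 3.02 in the yak libraries and 0.632 to 0.857 in the cattle-yak libraries. The FPKM of CSNK2B was thus above the summed FPKM of the catalytic genes in each yak library and below it in each cattle-yak library. These are RNA levels and do not give the make-up of the CK2 complex.

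**Figure D2:**
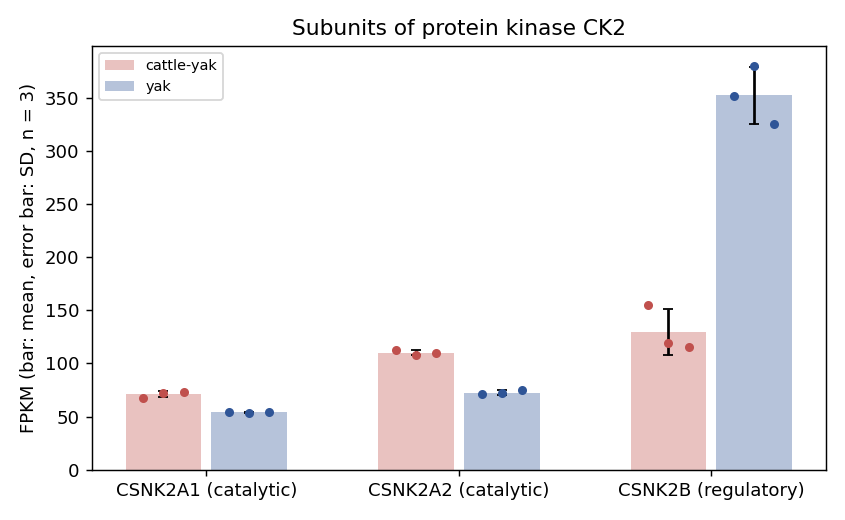
FPKM of the CK2 subunit genes, with bars for the mean of 3 animals, error bars for the SD and points for the animals (red, cattle-yak, blue, yak). CSNK2A1 and CSNK2A2 were higher in cattle-yak and CSNK2B was lower, at 115.3 to 154.8 FPKM against 326 to 380. The direction of CSNK2A1 and CSNK2A2 turned with median-of-ratios and with Sertoli scaling.

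The order of the levels was not the same in the groups. In yak it ran TSSK6, TSSK2, TSSK4, TSKS, TSSK3, CSNK2A2, CSNKA2IP, CSNK2A1, CAMK4, and the neighbours TSKS and TSSK3, and CSNK2A2 and CSNKA2IP, overlapped over the animals. In cattle-yak it ran CSNK2A2, CSNK2A1, TSSK3, CAMK4, TSSK6, TSSK2, TSKS, TSSK4, CSNKA2IP. Here the neighbours from CAMK4 to TSSK4 overlapped, so their order was not resolved.

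The level left in a cattle-yak animal, as a percentage of the yak mean, set the genes further apart. TSSK6 kept 0.738%, 0.272% and 0.213% in C1, C2 and C3. TSSK2 kept 1.25%, 0.673% and 0.156%, and TSSK4 1.19%, 0.419% and 0.202%, in C1, C2 and C3. TSKS kept 1.06% to 1.55% and TSSK3 4.77% to 6.16%. CAMK4 kept 15.4%, 19.9% and 25.5% in C1, C2 and C3, the opposite order of animals by these values. In fragments the counting interval of C2 overlapped those of C1 and C3, and only C1 and C3 stood apart.

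The spread among the cattle-yak animals also differed between genes. The coefficient of variation in cattle-yak was 70.6% for TSSK6, 78.9% for TSSK2 and 85.9% for TSSK4, but 13.0% for TSSK3, 18.8% for TSKS and 24.8% for CAMK4. In yak it lay between 6.37% and 10.5% for the TSSK genes. The fragments behind the low levels were few. For TSSK2 they were 57 in C1 (exact 95% Poisson interval 43.2 to 73.9) and 7 in C3 (2.81 to 14.4), so these animals differed by more than counting error. The same held for TSSK6, with 46 fragments in C1 (33.7 to 61.4) and 13 in C3 (6.92 to 22.2), and for TSSK4, with 30 (20.2 to 42.8) and 5 (1.62 to 11.7). For TSSK3 the intervals of C1 with 79 fragments (62.5 to 98.5) and C3 with 60 (45.8 to 77.2) overlapped. CAMK4 had 60 fragments in C1 (45.8 to 77.2) and 97 in C3 (78.7 to 118.3). Intervals of this kind cover counting error only.

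Markers of spermatids moved with these genes. All 7 round spermatid genes found of 8 listed were called lower in cattle-yak, with a summed level of 652 to 698 FPKM in yak and 27.4, 13.3 and 5.01 in C1, C2 and C3. The 7 elongating spermatid genes found of 9 listed were all lower too, with 9782 to 11963 FPKM in yak and 92.2, 37.1 and 20.3 in C1, C2 and C3. TXNDC2 was at 0 in C2 and C3 and SPACA4 in C3, and the remaining spermatid markers were above 0 in every library. As a percentage of the yak mean, the elongating list stood at 0.837%, 0.336% and 0.184% in C1, C2 and C3. The mean values of TSSK2, TSSK4 and TSSK6 followed the same order of animals. For TSSK4 and TSSK6 the counting intervals of C2 and C3 overlapped, so the order of C2 and C3 was not resolved there. Of the spermatocyte markers 2 of 9 were called lower and 1 higher without scaling, 4 lower and 0 higher with median-of-ratios scaling, and all 9 lower with Sertoli scaling. Their median log2 (foldchange) was −0.29, −0.89 and −2.72 in turn, with a summed level of 208 to 356 FPKM in cattle-yak against 449 to 463 in yak. Without scaling, 6 of 6 Leydig cell genes, 6 of 6 myoid cell genes and 7 of 8 spermatogonia genes were called higher in cattle-yak. Their summed levels in cattle-yak were 10434 to 12423, 584 to 782 and 736 to 939 FPKM. In yak these sums were 3340 to 4864, 119 to 147 and 178 to 246 FPKM. With Sertoli scaling 0 genes of these lists were called higher. Of 6 genes each, 3 were called higher and 1 lower for endothelium and 3 higher and 2 lower for macrophages. These counts became 0 higher and 1 lower, and 1 higher and 2 lower, with median-of-ratios scaling, and 0 higher with 4 and 3 lower with Sertoli scaling. Summed without scaling, the endothelium list had 41.5 to 59.5 FPKM in cattle-yak against 32.0 to 38.1 in yak. The macrophage list went the other way, with 71.9 to 94.7 FPKM in cattle-yak against 97.6 to 116.4 in yak. The part of cell numbers in the kinase levels was not tested.

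**Figure D3:**
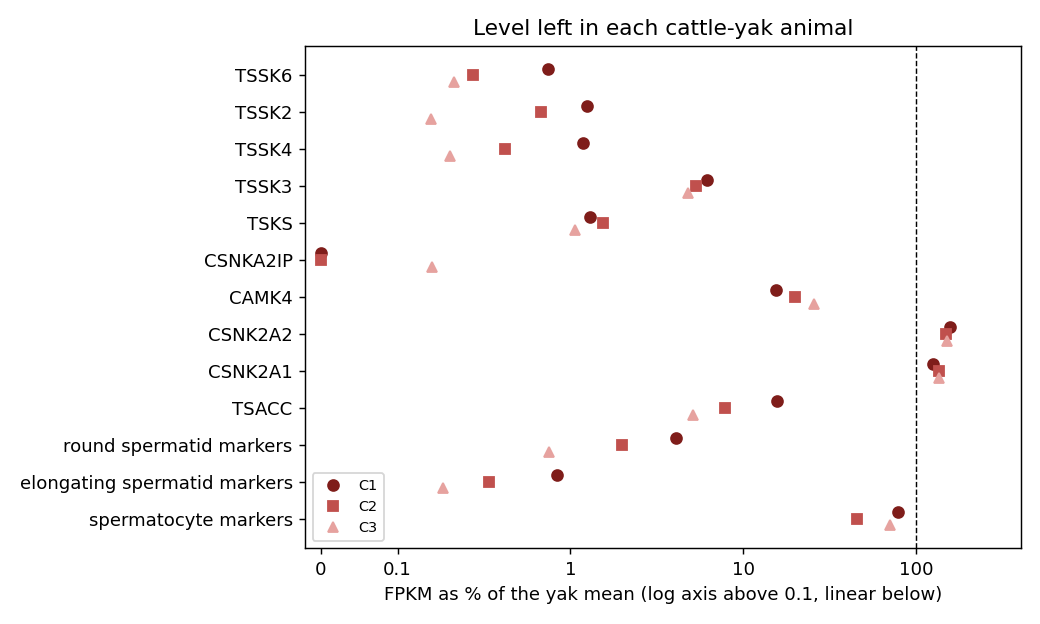
Level in C1, C2 and C3 as a percentage of the yak mean (log axis above 0.1, linear below, dashed line at 100%) for the 9 genes, TSACC and the summed spermatid and spermatocyte markers. TSSK2, TSSK4 and TSSK6 lie near or under 1% with C1 highest, TSSK3 near 5%, and CAMK4 between 15.4% and 25.5% with C3 highest.

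Of the 9 genes listed as partners of the TSSK kinases, with CREM, CREB1 and ATF1 among them, 6 were called lower and 1 higher, with a median of −1.60. With median-of-ratios scaling 6 were lower and 0 higher, and with Sertoli scaling 8 and 0. TSACC (ENSBGRG00000024207), the cochaperone that activates TSSK6 together with HSP90, had 464, 580 and 506 FPKM in Y1, Y2 and Y3, and 80.7, 40.4 and 26.3 in C1, C2 and C3. C1 again was highest of the cattle-yak. Limma gave it a log2 (foldchange) of −3.51 ± 0.34 (SE, adjusted p = 2.4e-05). In yak TSSK6 and its cochaperone stood at similar levels, with ratios of 1.34, 1.02 and 1.40 in Y1, Y2 and Y3. In cattle-yak the ratio was 0.0586, 0.0431 and 0.0518 in C1, C2 and C3, a log2 difference of −4.07 (exact permutation test, two-sided, p = 0.1).

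The HSP90 chaperone genes, which all cells use, did not fall when the libraries were left unscaled. HSP90AB1 had 549 to 731 FPKM in cattle-yak and 200.3 to 224.0 in yak, a log2 (foldchange) of 1.57 that became 0.95 with median-of-ratios scaling and −0.95 with Sertoli scaling. HSP90AA1 overlapped between the groups, with 758 to 1144 FPKM in cattle-yak and 744 to 859 in yak (0.31 on the log2 scale in limma with an adjusted p = 0.116, and −0.31 with median-of-ratios scaling). With Sertoli scaling HSP90AA1 had −2.21 and was called lower. PDPK1, a kinase upstream of TSSK3, had 22.7 to 32.1 FPKM in cattle-yak and 76.7 to 85.7 in yak, which limma put at −1.60 (adjusted p = 1.4e-05).

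The substrates in the sperm tail fell as well in limma, ODF2 with −3.73 (adjusted p = 5.6e-06) and SPAG16 with −3.65 (adjusted p = 3.5e-07). ODF2 averaged 66.6 ± 30.1 FPKM in cattle-yak against 838 ± 26.4 in yak, and SPAG16 1.91 ± 0.49 against 35.4 ± 1.76 (SD over 3 animals). CREM, the transcription factor that drives many spermatid genes, stands on 2 genes, and the more abundant stood at −4.14 in limma (adjusted p = 1.4e-05), with means of 15.5 ± 8.62 FPKM in cattle-yak against 258 ± 5.96 in yak (SD over 3 animals). The other gene with that symbol, which is uncertain, had −3.07. Of its relatives ATF1 had −1.02 and CREB1, which is active in most cells, 0.55, which became −0.03 with median-of-ratios and −1.81, a call, with Sertoli scaling.

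**Figure D4:**
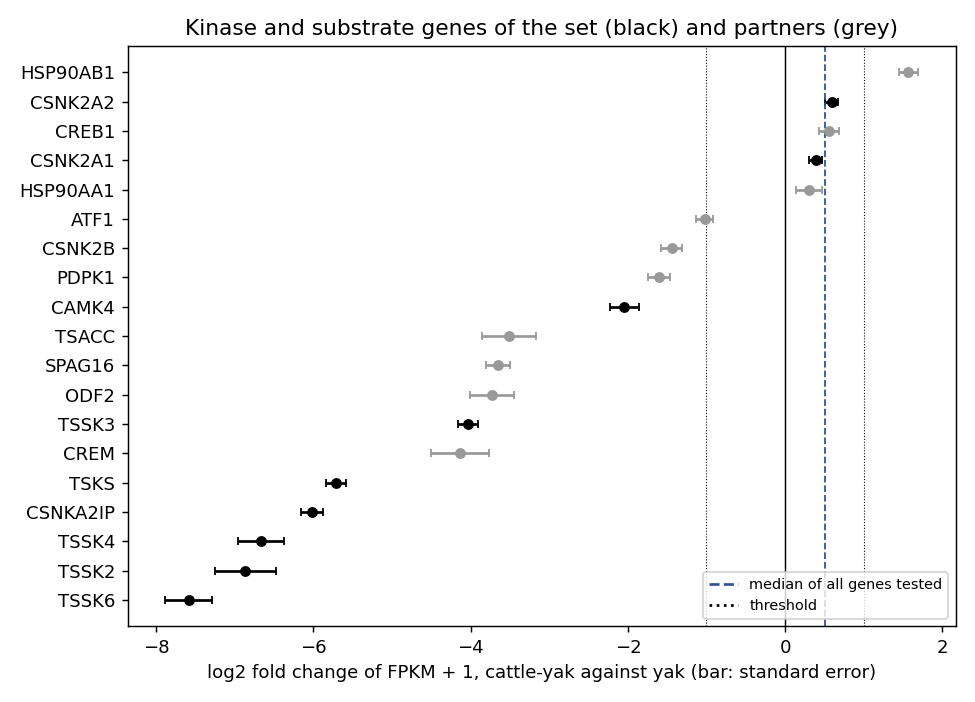
log2 (foldchange) of FPKM + 1 for the 9 genes (black) and the partner genes with CSNK2B (grey), cattle-yak against yak, with standard errors from limma, dotted lines at −1 and 1 and a dashed line at the median of all genes tested, 0.51. TSSK6, TSSK2 and TSSK4 lie at the low end, from −7.58 to −6.67, and the genes above 0 are HSP90AB1, CSNK2A2, CREB1, CSNK2A1 and HSP90AA1, which all turned below 0 with Sertoli scaling.

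In the calmodulin branch around CAMK4, 10 of 12 genes found were tested, and 6 were called higher and 2 lower, with 3 higher under median-of-ratios and 0 under Sertoli scaling. CAMKK1 and CAMKK2, the kinases that activate CAMK4, had log2 (foldchange) values of 1.98 and 1.75, which were −0.06 and −0.47 with Sertoli scaling. CAMKK1 had 8.46 to 14.2 FPKM in cattle-yak and 1.66 to 2.26 in yak. The kinase and its activators thus changed in opposite directions without scaling, while with Sertoli scaling neither activator was called. CAMKV, a pseudokinase, was among the genes called lower, with −3.64.

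Of the other casein kinase genes, 3 of 7 were called lower and 2 higher. Beside CSNK2B, the lower ones were CSNK1G1 with −1.81 and CSNK1G2 with −1.70. CSNK1E and CSNK1G3 were higher, with 1.64 and 1.42, and turned to −0.28 and −0.81 with Sertoli scaling. With median-of-ratios scaling CSNK1G3 had 0.87 and was not called. CSNK1D had −0.30 and the more abundant of 2 genes with the symbol CSNK1A1 had −0.28, under the threshold. With Sertoli scaling CSNK1D and this CSNK1A1 gene were called lower (−2.79 and −2.76), which made the list 5 lower and 0 higher. The less abundant CSNK1A1 gene, outside these counts, had −1.06 and was called lower, also with median-of-ratios scaling (−1.60). These CK1 kinases share only their name with CK2.

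The AMPK-related kinases, relatives of the TSSK kinases in the same kinase group, split. Of these 18 genes, 10 were called lower and 4 higher, with a median of −1.04. With Sertoli scaling 13 were lower and 0 higher. The largest falls among the genes counted were those of PRKAA1 (−2.25), the catalytic AMPK subunit alpha 1, and MELK (−2.19). The MARK1 gene counted had 0.90 and was not called. A less abundant gene with that symbol, outside these counts, had −2.58 and was called lower. The largest rises were those of MARK4 (2.35, and −0.09 with Sertoli scaling) and BRSK2 (2.16, and 0.59 with Sertoli scaling, on a gene model of 355 bases). None of the falls in this list was as large as that of TSSK3. Among 12 further kinases known from the testis, TSSK5 included, 8 were lower and 1 higher (11 and 0 with Sertoli scaling). The largest falls were those of MAK, a kinase of meiotic and later germ cells (−5.37), and PHKG2, the testis and liver subunit of phosphorylase kinase (−3.73). On the higher side was CILK1 (2.06, and −0.15 with Sertoli scaling). TSSK5, chosen for mention after its values were seen, had 10.8 to 16.0 FPKM in yak and 0 to 0.44 in cattle-yak on a gene model of 396 bases.

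In the annotation of the table, nucleus stood on 8 of the 9 genes and on 28.3% of the tested genes with an annotation. ATP binding stood on 7, against 8.55%. The term peptidyl-serine phosphorylation stood on 6 of the 9 genes, TSSK2, TSSK4, TSSK6, CAMK4, CSNK2A1 and CSNK2A2, and on 0.650% of the tested genes with an annotation. Of the set, only the 4 TSSK genes carried both multicellular organism development and magnesium ion binding, terms on 2.28% and 1.38% of those tested genes. Acrosomal vesicle, the cap of the sperm head, was given for TSSK2, TSSK4 and CSNK2A2, and for 0.492% of those tested genes.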

How the data were processed

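Testis RNA-seq libraries of 6 animals were used, 3 cattle-yak (TES5 to TES7 in the labels, here C1 to C3) and 3 yak (Yak8 to Yak10, here Y1 to Y3). According to the study's methods, reads were trimmed by the authors with Trimmomatic, and those of both groups were mapped to the yak genome LU_Bosgru_v3.0 with HISAT2, FPKM came from Cufflinks and counts from HTSeq-count. Cattle alleles of the hybrids were thus mapped to a yak reference. The deposited table holds FPKM values by gene and library, not scaled between libraries.

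Whole fragments, gene lengths and depths were recovered from the ratios of FPKM values for the 17973 genes with at least 2 values above 0, all within 0.001 of a whole number. Genes whose FPKM averaged 0.5 or more over the libraries were compared in R 4.3.3 with limma 3.58.1 (lmFit, eBayes with trend, two-sided, Benjamini-Hochberg) on log2 (FPKM + 1), a scale that understates changes of low genes. The thresholds were those of the study. For 5 gene pairs the log2 ratio of FPKM + 1 within a library was tested by exact permutation of the group labels (20 arrangements, two-sided, smallest possible p 0.1), and the linear ratios printed are of FPKM. The p-values adjusted over the 5 pairs were also 0.1. Other values came from Python 3.11.15 with pandas 2.3.3 and scipy 1.17.1. The recovery of fragments and the limma fit were each tested on simulated data. In the limma simulation few genes changed, equally up and down, so it did not cover a shift of many genes between the groups.

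All 9 genes found are named, with every partner and casein kinase gene and, from the other lists, the 2 called genes with the largest change in each direction, except for 1 gene that is not reported here. The genes and lists were chosen with earlier results of these data known. For a symbol on several genes the most abundant was used. Alternatives were pseudocounts of 0.1 and 0.01, no filter or a minimum of 5 FPKM, median-of-ratios scaling, scaling on 9 Sertoli genes, voom on recovered fragments and the omission of each animal. Sequences and chromosome positions were not used here.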

Additional observations from a re-analysis of the deposited data

How the results depend on the processing

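Under each of the 13 alternatives the same 7 genes were called lower and 0 of the set higher, and with Sertoli scaling CSNK2A1 and CSNK2A2 were called lower as well. Of the 9 genes only CSNK2A1 and CSNK2A2 changed direction, and only with a scaling between libraries: CSNK2A1 to −0.22 with median-of-ratios and −2.09 with Sertoli scaling, and CSNK2A2 to −0.018 and −1.90. The cause was not tested. Over all genes 5023 were called higher and 3136 lower, with median-of-ratios scaling 2655 and 4173 (median log2 (foldchange) 0.01), and with Sertoli scaling 59 and 9945 (median −1.59). Without 1 animal, 8029 to 8326 genes were called in all, and the log2 (foldchange) of TSSK2 lay between −7.28 and −6.38. The lowest levels in cattle-yak rest on few fragments (5 to 57 for TSSK2, TSSK4 and TSSK6, at most 1 for CSNKA2IP), and the log2 (foldchange) of CSNKA2IP went from −6.02 to −11.51 with a pseudocount of 0.01. No paired analysis was possible because the labels give the animals no shared numbers: replicates were numbered within a group in accession order, and these numbers tie no animal of one group to one of the other.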
